A study of Mus musculus with 42 samples.

Results

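The circadian clock genes described here were 10 genes of the cell's internal day-night oscillator, chosen by symbol from the rows of a table of 37310 genes: Arntl (also called Bmal1), Clock, Per1, Per2, Cry1, Cry2, Nr1d1, Nr1d2, Dbp and Tef. The rule named symbols and set no threshold on a measured value, but the genes were chosen with earlier results of these data known. The cells were bone marrow-derived macrophages (BMDM), grown from mouse marrow in medium conditioned by L929 cells. They were labelled WT or KO for Irf5, a transcription factor of the innate immune response. The KO mice carried floxed Irf5 alleles and LysM-Cre, which is driven from the Lyz2 promoter in myeloid cells. The study used young adult males. RNA was sequenced from 7 conditions in each genotype, namely untreated cells (Control) at 0, 2 and 24 h, and cells given palmitate or LPS for 2 or 24 h. Palmitate is a saturated fatty acid and LPS is a bacterial cell wall component. Each of the 14 groups had 3 libraries, 42 in all. The time of day of sampling and whether the libraries of a group came from separate mice or cultures are not given in the sources used here. The p-values therefore measure the spread between these libraries, which may be technical.

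The clock is a feedback loop of transcription. ARNTL and CLOCK bind DNA together and activate the Per and Cry genes, whose proteins then repress them. In another loop the nuclear receptors NR1D1 and NR1D2 repress Arntl. DBP and TEF are output factors that carry the rhythm to other genes. In macrophages the loop is known to gate inflammatory responses by the time of day. In cultured cells a change of medium or serum can reset it, which is known for the Per genes in particular.

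The short DNA sequence through which ARNTL and CLOCK act is the E-box. To show where it lies, the 250 bases before the annotated starts of the genes (RefSeq, GRCm38.p6) were searched on both strands for the E-box CACGTG, its variant CACGTT, the D-box TTANGTAA bound by DBP and TEF, the cyclic AMP response element core TGACG, and AGGTCA, which NR1D1 and NR1D2 bind with flanking bases. Windows were matched for 9 of 10 genes, with 14 starts. No entry was matched for Per2. The E-box stood before Per1, Cry1 and Tef, in 4 of 14 windows, and in 6.02% of all 32851 windows. The variant stood before Cry1, Cry2 and Nr1d1, in 3 of 14 windows against 3.85% of all. TGACG was found before Per1, Cry1 and Cry2 (17.8% of all windows) and AGGTCA before Clock, Per1 and Nr1d2 (14% of all windows). The D-box was in 0 of 14 windows and in 2.06% of all. The 5 windows below hold an E-box or its variant, share at most 10 bases with annotated exons and belong to genes that passed a test below. Capitals mark the matched letters.
Per1, chr11:69098699-69098948, plus strand: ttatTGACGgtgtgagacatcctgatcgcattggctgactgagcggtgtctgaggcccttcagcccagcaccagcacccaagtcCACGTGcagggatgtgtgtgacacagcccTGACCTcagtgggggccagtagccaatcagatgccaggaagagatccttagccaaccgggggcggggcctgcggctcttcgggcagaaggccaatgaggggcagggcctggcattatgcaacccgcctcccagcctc
Cry1, chr10:85185055-85185304, minus strand: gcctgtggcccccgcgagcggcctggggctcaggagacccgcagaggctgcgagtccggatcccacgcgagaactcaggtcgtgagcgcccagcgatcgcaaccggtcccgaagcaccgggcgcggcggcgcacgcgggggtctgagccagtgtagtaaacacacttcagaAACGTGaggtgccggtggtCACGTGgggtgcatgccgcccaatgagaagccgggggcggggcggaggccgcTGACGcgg
Cry2, chr2:92434070-92434319, minus strand: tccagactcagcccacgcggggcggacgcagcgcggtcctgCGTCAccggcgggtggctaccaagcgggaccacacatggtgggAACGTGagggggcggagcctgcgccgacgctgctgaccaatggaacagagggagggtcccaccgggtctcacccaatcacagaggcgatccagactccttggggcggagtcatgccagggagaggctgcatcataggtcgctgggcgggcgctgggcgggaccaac
Tef, chr15:81811164-81811413, plus strand: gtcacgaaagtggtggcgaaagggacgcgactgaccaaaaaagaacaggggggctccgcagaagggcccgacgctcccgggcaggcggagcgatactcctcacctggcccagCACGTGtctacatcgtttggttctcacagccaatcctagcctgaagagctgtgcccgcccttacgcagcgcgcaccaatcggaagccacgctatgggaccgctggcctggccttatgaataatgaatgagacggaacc
Nr1d1, chr11:98775378-98775627, minus strand: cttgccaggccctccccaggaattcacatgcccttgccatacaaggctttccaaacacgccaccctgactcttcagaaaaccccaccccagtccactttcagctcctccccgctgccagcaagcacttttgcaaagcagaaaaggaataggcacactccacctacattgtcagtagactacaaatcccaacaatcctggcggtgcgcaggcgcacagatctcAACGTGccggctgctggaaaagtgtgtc
The E-box began 166 bases before the start of Per1, 60 before that of Cry1 and 138 before the second start of Tef. The variant began 79 bases before the start of Cry1, 166 before that of Cry2 and 28 before that of Nr1d1, in each case on the other strand, so that it reads AACGTG as printed. In the Per1 window the first capitals are TGACG and the last are AGGTCA on the other strand (TGACCT as printed). In the Cry1 window the last capitals are TGACG, and in the Cry2 window the first are TGACG on the other strand (CGTCA as printed). The Per1 and Tef windows lie within the annotated gene bodies, where they hold 1 and 0 exon bases. The Cry1 window shares 10 bases with the annotated exon, and the Cry2 and Nr1d1 windows lie outside annotated genes. A match in these windows is a description and not a binding site.

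All 10 genes were detected in every library. The total count per library was 2848793 to 7743442, and levels are given as CPM (counts scaled to a common library size) scaled by TMM, a normalisation for differences in RNA composition. The lowest count of any clock gene was 9, for Nr1d1, which is above the 3 counts taken as the floor. At their median counts the counting error alone was 17.1% for Nr1d1, 14% for Per2 and 13.4% for Arntl, but 5.17% for Clock and 5.45% for Nr1d2. Small changes were therefore harder to detect for the first 3. Besides the neighbours of Dbp and Nr1d1 described below, Cry2 shares 295 exon bases with D930015M05Rik (0 to 3 counts), Tef 193 with Gm17597 and Arntl 33 with Gm45355, all on the other strand, and the last 2 were not analysed here. Per kilobase of exon, Nr1d2 had the highest mean level (11.3 CPM per kb), followed by Dbp (8.18), Tef (7.24), Per1 (5.63), Clock (4.99), Cry1 (4.08), Cry2 (2.24), Nr1d1 (2.03), Per2 (1.78) and Arntl (1.36). Of the neighbours in this order, Cry1 lay above Cry2 in 42 of 42 libraries. Dbp lay above Tef in 26 of 42, Cry2 above Nr1d1 in 27, Nr1d1 above Per2 in 27 and Per2 above Arntl in 26, so those places were not separated across libraries. With the longest transcript as length instead, 3 of 10 genes kept their place, and Dbp came first.

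**Figure D1:**
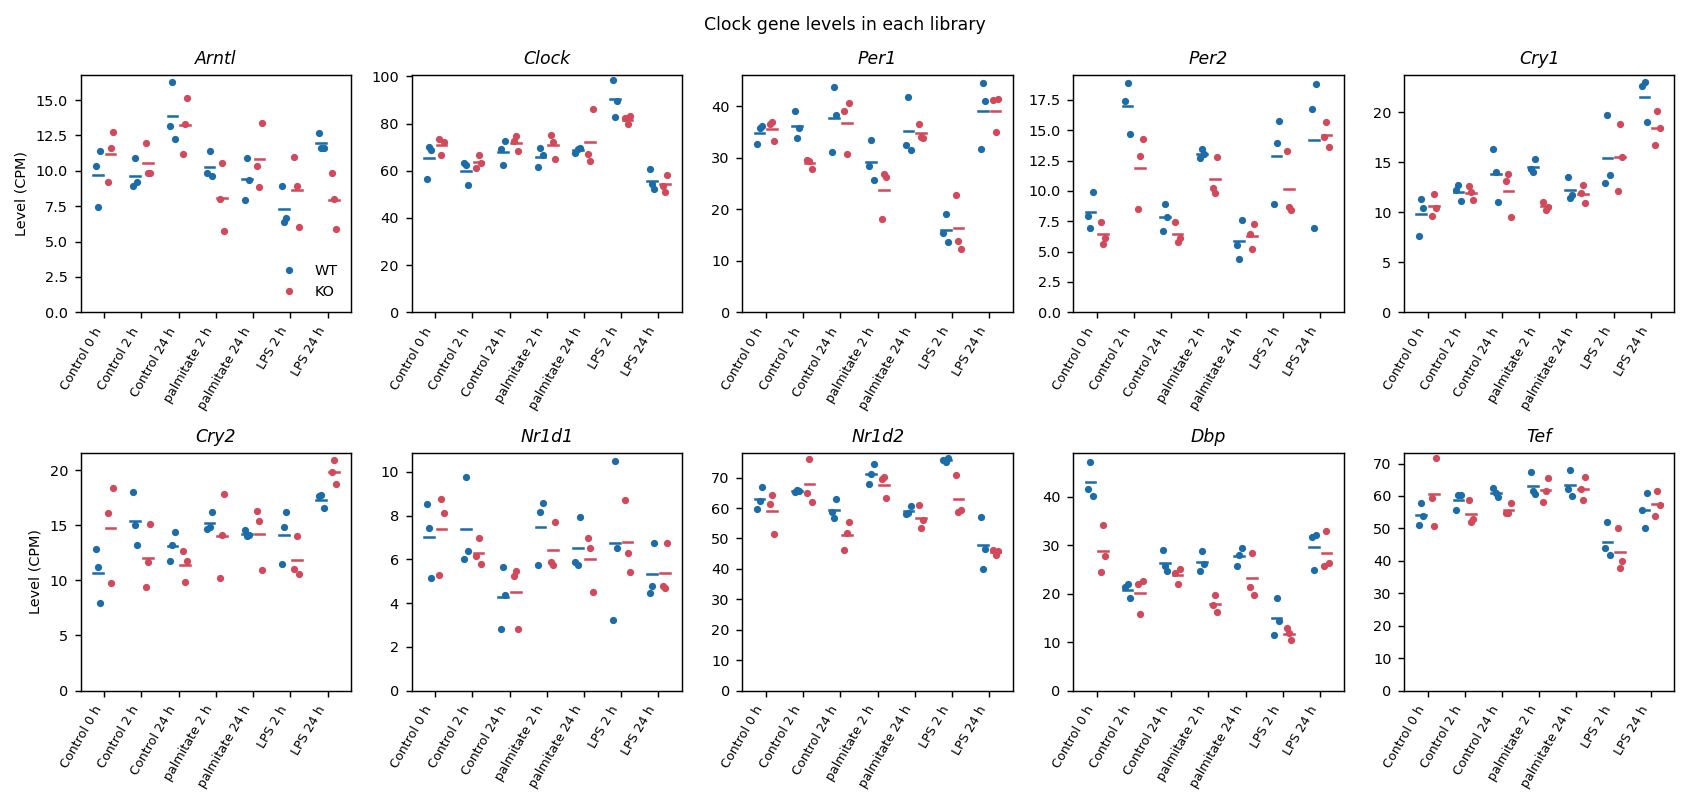
Level of each clock gene (y axis, TMM-scaled CPM, from 0) in the 7 conditions (x axis). Points are the 42 libraries and bars are means of 3 libraries, blue for WT and red for KO. Dbp is highest in WT Control at 0 h (43.01 CPM), Per2 in WT Control at 2 h (16.98 CPM), and Per1 is lowest in WT at LPS 2 h (16.02 CPM).

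Macrophage markers (7 genes, Csf1r and Adgre1 among them) summed to 5128 to 8789 CPM per library. B cell, T or NK cell, erythroid and dendritic cell markers each stayed at or below 13 CPM. Irf5 itself was not lower in the libraries labelled KO (267 to 430.5 CPM) than in those labelled WT (209.5 to 388.9 CPM), and which exons were removed could not be seen in counts per gene. By edgeR it was higher in KO at Control 0 h (0.47 on the log2 scale, adjusted p = 9.12e-08) and Control 2 h (0.26, adjusted p = 0.0193). The same held at palmitate 24 h (0.31, adjusted p = 0.00272) and LPS 24 h (0.47, adjusted p = 1.55e-07). It did not pass at palmitate 2 h, LPS 2 h or Control 24 h. Lyz2, the gene into which the Cre was placed, was 4682 to 8766 CPM in KO and 8025 to 14590 CPM in WT libraries. Directions between genotypes below are therefore between labels. Replicate pairs correlated at 0.9584 to 0.9868 on the log2 CPM scale, and no pair agreed within sampling noise. The LPS 2 h group of KO held the shallowest library.

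The Control samples at 0, 2 and 24 h asked how the clock genes moved without treatment. At 2 h against 0 h, over both genotypes, Per2 rose and Dbp fell, and the other 8 genes did not pass the test. That is 2 of 10 genes (1 higher, 1 lower) against 16.7% of the 11624 genes tested (9.35% higher, 7.36% lower). Per2 (ENSMUSG00000055866, chr1:91415982-91459324, minus strand; GRCm38, GENCODE vM21, as for all genes below) encodes a repressor of the loop. Its level in WT was 7.96, 6.95 and 9.92 CPM at 0 h and 17.4, 18.9 and 14.7 CPM at 2 h. The KO libraries had 7.46, 5.65 and 6.12 CPM at 0 h and 8.51, 12.9 and 14.3 CPM at 2 h. Every library at 2 h lay above every library of its own genotype at 0 h. Such separation in either direction was found for 31.9% of all genes in WT and 27% in KO. The change was 0.96 ± 0.17 on the log2 scale (SE, n = 6 libraries against 6, adjusted p = 2.44e-05 by edgeR). It was 1.02 within WT (adjusted p = 0.00109) and 0.90 within KO (adjusted p = 0.0124). The call within KO was lost without KO Control 0 h library 2 or 3 or KO Control 2 h library 3 (adjusted p up to 0.0935).

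Dbp (ENSMUSG00000059824, chr7:45705088-45710203, plus strand) fell over the same 2 h. Its level in WT was 41.6, 47.2 and 40.2 CPM at 0 h and 21.3, 22 and 19.1 CPM at 2 h. The KO libraries had 24.5, 34.1 and 27.7 CPM at 0 h and 22.1, 15.8 and 22.6 CPM at 2 h. All 6 libraries at 2 h lay below all 6 at 0 h, which held for 7.21% of all genes tested in either direction. Dbp changed by -0.78 ± 0.10 on the log2 scale (SE, adjusted p = 4.58e-08), with -1.05 within WT (adjusted p = 1.44e-07) and -0.52 within KO (adjusted p = 0.0154). The KO call was lost without KO Control 0 h library 2 or KO Control 2 h library 2 (adjusted p up to 0.171). The changes were not shown to differ between the labels (0.53, adjusted p = 0.137). Dbp shares 539 exon bases with Sphk2, a sphingosine kinase gene on the other strand, and whether counting used the strand is not stated. Sphk2 fell as well, by 0.42 on the log2 scale (adjusted p = 8.64e-05), and reads from the shared bases cannot be told apart without the strand.

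At 24 h Per2 stood at 6.74, 8.91 and 7.87 CPM in WT and 7.45, 5.83 and 6.09 CPM in KO, near its level at 0 h (log2 fold change -0.04, adjusted p = 0.933). Against 2 h its log2 fold change was -0.995 ± 0.18 (SE, adjusted p = 1.6e-05). Against 0 h, 2 of 10 genes passed the test, Dbp and Nr1d1, both lower (16.5% of all genes tested, 7.9% higher and 8.62% lower). Dbp stood at 28.9, 25.7 and 24.6 CPM in WT and 24.3, 22.1 and 25.1 CPM in KO. Its log2 fold change against 0 h was -0.49 ± 0.10 (SE, adjusted p = 0.000334). It was -0.71 within WT (adjusted p = 0.000294) and -0.28 within KO, where it did not pass (adjusted p = 0.307). These changes were not shown to differ (0.44, adjusted p = 0.322). Sphk2, which overlaps Dbp, was lower as well but did not pass (-0.20, adjusted p = 0.0837).

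Nr1d1 (ENSMUSG00000020889, chr11:98767932-98775333, minus strand), the receptor gene whose product represses Arntl, was the lowest in counts. In WT it was 8.51, 7.42 and 5.16 CPM at 0 h and 2.81, 5.66 and 4.37 CPM at 24 h. In KO it was 5.30, 8.73 and 8.10 CPM at 0 h and 5.21, 5.47 and 2.83 CPM at 24 h. Nr1d1 did not pass within WT (-0.65, adjusted p = 0.177) or within KO (-0.76, adjusted p = 0.138). Over both genotypes it changed by -0.70 ± 0.22 on the log2 scale (SE, adjusted p = 0.0191), and the groups overlapped. The call was lost without any 1 of 4 libraries, namely WT Control 0 h library 1, KO Control 0 h library 2, WT Control 24 h library 1 and KO Control 24 h library 3, with adjusted p up to 0.1. Nr1d1 shares 263 exon bases with Thra, a thyroid hormone receptor gene on the other strand, which did not pass the test in this comparison (-0.14, adjusted p = 0.395).

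At 24 h against 2 h, 4 of 10 genes passed the test (18.3% of all genes). Arntl was higher and Per2, Nr1d1 and Nr1d2 were lower (7.97% of all genes higher, 10.3% lower). Arntl (ENSMUSG00000055116, chr7:113207465-113314126, plus strand) was 8.90, 10.9 and 9.19 CPM in WT at 2 h and 13.2, 16.3 and 12.2 CPM at 24 h. The KO levels were 11.9, 9.85 and 9.84 CPM at 2 h and 11.2, 13.3 and 15.2 CPM at 24 h. The WT groups did not overlap (28.7% of all genes did not) and the KO groups did. Arntl changed by 0.43 ± 0.15 on the log2 scale (SE, adjusted p = 0.0333). It was 0.52 within WT (adjusted p = 0.109) and 0.34 within KO (adjusted p = 0.399). The call over both genotypes was lost when every gene with a count was tested, and without any 1 of 7 libraries (adjusted p up to 0.122), which were libraries 1 and 3 of WT at 2 h, 2 of WT at 24 h, 2 and 3 of KO at 2 h and 2 and 3 of KO at 24 h. Nr1d1 did not pass within WT (-0.74, adjusted p = 0.125) or within KO (-0.52, adjusted p = 0.392). Over both genotypes it fell by 0.63 on the log2 scale (adjusted p = 0.0373), with every library at 24 h below every library at 2 h, which held for 10.3% of all genes. Its call was lost without any 1 of 6 libraries (adjusted p up to 0.158), which were library 2 of WT at 2 h, 1 and 3 of WT at 24 h, 1 and 2 of KO at 2 h and 3 of KO at 24 h. Thra, which overlaps Nr1d1, did not pass in this comparison (-0.08, adjusted p = 0.661). Arntl and Nr1d1 passed in opposite directions, each only over both genotypes, and a link between them was not tested. Nr1d2 (ENSMUSG00000021775, chr14:18204054-18239127, minus strand), which encodes the other receptor, went from 65.2, 65.9 and 65.6 CPM to 58.7, 56.7 and 62.9 CPM in WT. In KO it went from 64.96, 76.3 and 62.1 CPM to 46.2, 51.9 and 55.5 CPM. Its log2 fold change was -0.27 ± 0.07 (SE, adjusted p = 0.00302). It was -0.39 within KO (adjusted p = 0.004) and -0.14 within WT, where it did not pass (adjusted p = 0.437). The call within KO was lost without KO Control 2 h library 2 (adjusted p = 0.0634). The 3 Control comparisons share libraries and are not independent of each other.

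**Figure D2:**
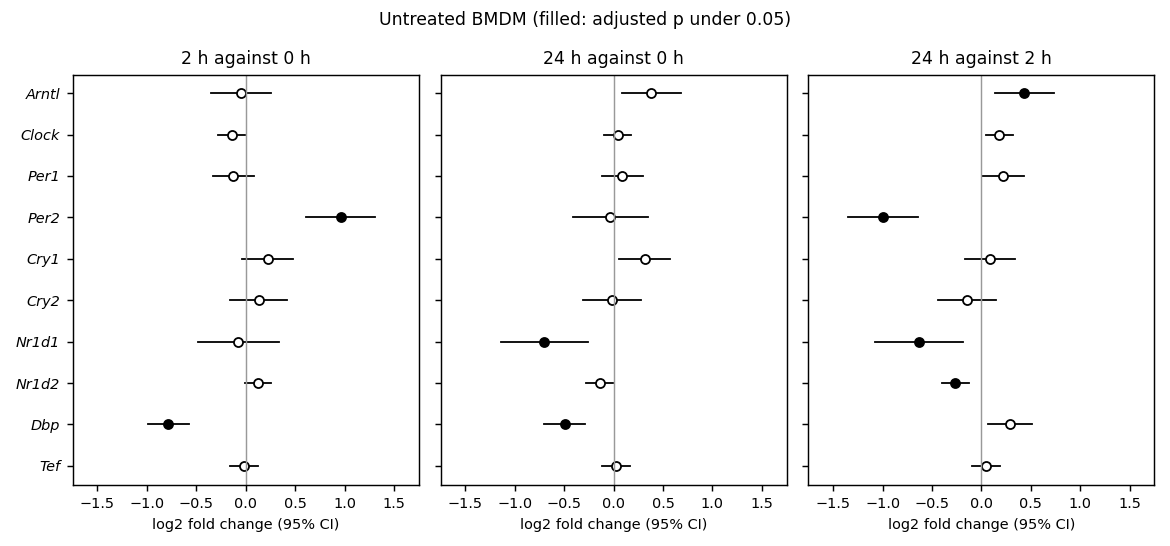
Log2 fold change with 95% confidence interval (x axis) of each clock gene (y axis) between Control time points over both genotypes, 6 libraries against 6. Filled points passed the test. Per2 is at 0.96 for 2 h against 0 h and at -0.995 for 24 h against 2 h, and Dbp at -0.78 for 2 h against 0 h.

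Clock, Per1, Cry1, Cry2 and Tef passed in none of the 3 Control comparisons. Closest to the threshold at 24 h against 2 h were Clock (0.18, adjusted p = 0.0529) and Dbp (0.29, adjusted p = 0.0561). Both passed when only the groups compared were fitted. The 4 cell cycle markers summed to 250.5 to 427.1 CPM over the Control libraries at 0, 2 and 24 h. The granulocyte precursor markers summed to 50.9 to 61.3 CPM in WT at 0 h, 20.7 to 37.4 CPM at 2 h and 58.7 to 65.5 CPM at 24 h. In KO they were 81.5 to 87.7, 70.9 to 137 and 136.9 to 218.9 CPM. The fibroblast markers, with Dcn at 0 in all Control groups but KO at 0 h, were 0.529 to 0.905, 1.16 to 58.7 and 2.74 to 45.2 CPM in WT. In KO they were 42.1 to 69.3, 72.3 to 118.2 and 39.5 to 133.1 CPM. The part of these shifts in the Control results was not tested.

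The palmitate samples were compared with Control of the same time. Plin2, which encodes a lipid droplet coat protein, was 520 CPM under palmitate and 258 CPM in Control at 2 h, and 840 CPM and 209 CPM at 24 h. At 2 h 0 of 10 clock genes passed the test by edgeR (0.542% of all genes did), and 0 by DESeq2. At an unadjusted p under 0.05 there were 3, Per1 (-0.29, adjusted p = 0.399), Clock (0.15, adjusted p = 0.595) and Tef (0.14, adjusted p = 0.631). The share of all genes at an unadjusted p under 0.05 was not determined. Counts at that threshold, here and below, therefore have no background to be read against. At 24 h there were again 0 of 10 by either tool (2.57% of all genes passed by edgeR), and 2 at an unadjusted p under 0.05. These were Arntl (-0.43, 95% confidence interval -0.73 to -0.13, adjusted p = 0.14) and Nr1d1 (0.50, 95% confidence interval 0.05 to 0.95, adjusted p = 0.329). The intervals of Arntl and Nr1d1 leave room for changes as large as their own in the Control time course. For these 2 genes a lack of change at palmitate 24 h was therefore not shown. For the other genes, not passing the test does not by itself show a lack of change.

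Under LPS more of the clock genes passed the test. Tnf, an early LPS target, was 1947 CPM at LPS 2 h against 74.5 CPM in Control. At 2 h, 5 of 10 clock genes passed the test, 2 higher (Clock, Cry1) and 3 lower (Per1, Dbp, Tef). Among all genes 34.2% passed, 19% higher and 15.2% lower. Per1 (ENSMUSG00000020893, chr11:69095217-69109960, plus strand), a repressor gene, had the largest change. It was 39.1, 33.8 and 35.7 CPM in WT Control and 15.4, 19.1 and 13.6 CPM under LPS. In KO it was 29.5, 29.4 and 27.8 CPM in Control and 22.8, 13.8 and 12.3 CPM under LPS. No LPS library reached a Control library. Per1 fell by 1.03 on the log2 scale (SE 0.12, adjusted p = 6.96e-10), to 0.488 of the Control level. It fell by 1.17 within WT and by 0.90 within KO.

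Clock (ENSMUSG00000029238, chr5:76209868-76304792, minus strand), which encodes the partner of ARNTL, rose. It was 63.3, 62.4 and 53.9 CPM in WT Control and 98.4, 82.8 and 89.7 CPM under LPS. In KO it was 61.0, 66.8 and 63.1 CPM in Control and 82.4, 79.6 and 83.0 CPM under LPS. The groups did not overlap, as for Per1, and 17% of all genes showed no overlap. Clock changed by 0.47 ± 0.07 on the log2 scale (SE, adjusted p = 9.49e-08). Cry1 (ENSMUSG00000020038, chr10:85131700-85185064, minus strand), a repressor gene, also rose, by 0.40 ± 0.13 on the log2 scale (SE, adjusted p = 0.0111), from 11.1 to 12.7 CPM over the 6 Control libraries to 12.2 to 19.7 CPM over the 6 under LPS. Cry1 did not pass within WT (0.38, adjusted p = 0.12) or within KO (0.41, adjusted p = 0.0954). Its call over both genotypes was lost without WT LPS 2 h library 2, without KO LPS 2 h library 2 (adjusted p up to 0.108) and when every gene with a count was tested.

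Both output factors fell at 2 h. Dbp was 11.45, 19.1 and 14.3 CPM under LPS in WT and 12.9, 12.0 and 10.4 CPM in KO. The Control range was 15.8 to 22.6 CPM, and only WT library 2 under LPS reached it. Its log2 fold change was -0.62 ± 0.12 (SE, adjusted p = 5.71e-05), with -0.44 within WT (adjusted p = 0.0521) and -0.79 within KO (adjusted p = 0.000502). Sphk2 on the other strand fell too (-0.28, adjusted p = 0.0114). Tef (ENSMUSG00000022389, chr15:81802421-81826863, plus strand) was 55.8, 60.2 and 60.3 CPM in WT Control and 44.0, 52.0 and 41.8 CPM under LPS. In KO it was 58.8, 51.9 and 52.9 CPM in Control and 50.1, 37.7 and 40.01 CPM under LPS. Within each genotype the Tef groups did not overlap, as for 35.2% of all genes in WT and 34.1% in KO. Tef changed by -0.37 ± 0.08 on the log2 scale (SE, adjusted p = 7.8e-05). Arntl stood at 6.055 to 11.01 CPM under LPS and 8.90 to 11.9 CPM in Control and did not pass (-0.38, adjusted p = 0.0719).

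At LPS 24 h against Control 24 h, 6 of 10 genes passed. Per2, Cry1 and Cry2, all repressors, were higher, and Arntl, Clock and Nr1d2 were lower. Among all genes 52.1% passed, 25.6% higher and 26.5% lower, so this share was near the background. Per2 was 16.8, 6.95 and 18.8 CPM in WT under LPS and 14.5, 15.7 and 13.6 CPM in KO. WT library 2 lay within the Control range and the other 5 above it. Per2 changed by 1.01 ± 0.17 on the log2 scale (SE, adjusted p = 2.17e-06). Cry1 was 22.6, 23 and 18.98 CPM in WT and 16.7, 20.2 and 18.5 CPM in KO, against 9.49 to 16.3 CPM in Control, and changed by 0.64 ± 0.12 (SE, adjusted p = 9.1e-06). Cry2 (ENSMUSG00000068742, chr2:92403646-92434043, minus strand), the paralogue of Cry1, was 17.6, 17.7 and 16.5 CPM in WT and 19.8, 20.9 and 18.7 CPM in KO, against 9.84 to 14.4 CPM in Control. Its log2 fold change was 0.59 ± 0.14 (SE, adjusted p = 0.000325). It was 0.80 within KO (adjusted p = 0.000783) and 0.38 within WT, where it did not pass (adjusted p = 0.124). Neither Cry gene overlapped between LPS and Control libraries, which held for 31.7% of all genes.

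The activator genes Clock and Arntl were lower at 24 h over both genotypes, as was Nr1d2, whose product represses Arntl. Clock was 60.8, 54.3 and 52.4 CPM in WT and 53.7, 50.8 and 58.3 CPM in KO under LPS, below all Control libraries (62.2 to 74.5 CPM). Its log2 fold change was -0.34 ± 0.07 (SE, adjusted p = 2.38e-05). Arntl was 12.7, 11.6 and 11.6 CPM in WT and 9.84, 8.03 and 5.86 CPM in KO, which overlapped the Control range of 11.2 to 16.3 CPM. It changed by -0.49 ± 0.15 (SE, adjusted p = 0.00482). The change was -0.76 within KO (adjusted p = 0.00344) and -0.22 within WT (adjusted p = 0.435), and the difference between the labels did not pass (adjusted p = 0.939). The call within KO was lost without KO LPS 24 h library 3 (-0.57, adjusted p = 0.0528). Nr1d2 was 57.2, 40.05 and 46.4 CPM in WT and 46.2, 44.4 and 45.8 CPM in KO, which overlapped the Control range of 46.2 to 62.9 CPM, and changed by -0.25 ± 0.07 (SE, adjusted p = 0.00236). The Nr1d2 change was -0.32 within WT (adjusted p = 0.0078) and -0.18 within KO, where it did not pass (adjusted p = 0.151). Its call within WT was lost without WT Control 24 h library 3 or WT LPS 24 h library 2 (adjusted p up to 0.114). Per1, Dbp, Tef and Nr1d1 did not pass at 24 h. Per1 was 31.7 to 44.5 CPM under LPS and 30.8 to 43.7 CPM in Control.

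**Figure D3:**
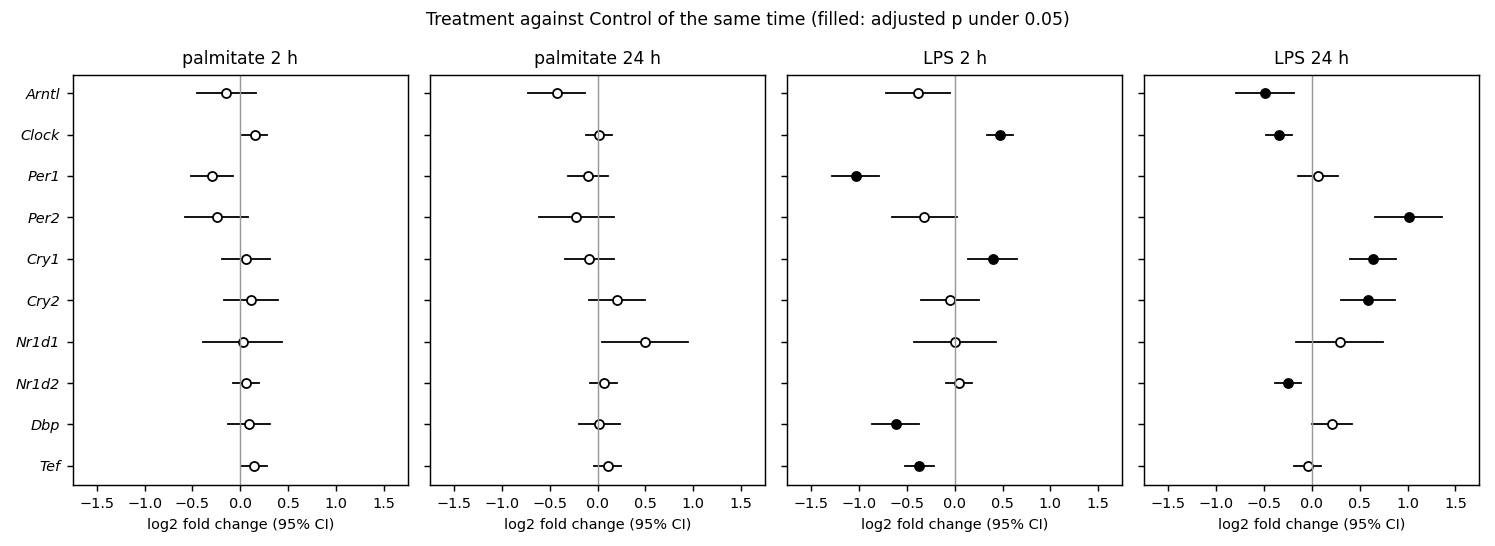
Log2 fold change with 95% confidence interval (x axis) of each clock gene (y axis) under palmitate or LPS against Control of the same time, over both genotypes, 6 libraries against 6. Filled points passed the test: none under palmitate, 5 at LPS 2 h and 6 at LPS 24 h. Clock lies at 0.47 at 2 h and at -0.34 at 24 h.

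Whether the LPS change itself differed between the time points was then tested in the same fit, a comparison chosen after the values were seen. It differed for 7 of 10 clock genes (5 with a positive and 2 with a negative difference) and for 46.3% of all genes (21.7% positive, 24.5% negative). Clock changed direction, with a difference (24 h change minus 2 h change) of -0.82 ± 0.10 (SE, adjusted p = 4.54e-10). Per1 had the opposite sign of difference, 1.10 ± 0.16 (SE, adjusted p = 1.05e-07), with a change of -1.03 at 2 h and of 0.06 at 24 h (adjusted p = 0.635). Per2 differed by 1.33 (adjusted p = 1.03e-05), Dbp by 0.82 (adjusted p = 3.07e-05), Cry2 by 0.64 (adjusted p = 0.0083), Tef by 0.33 (adjusted p = 0.00777) and Nr1d2 by -0.29 (adjusted p = 0.0122). Arntl, Cry1 and Nr1d1 did not pass. Sphk2 differed by 0.80 (adjusted p = 1.65e-07), about as much as Dbp, and was higher at LPS 24 h than in Control (0.52, adjusted p = 1.73e-07) where Dbp did not pass (0.21, adjusted p = 0.0921).

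**Figure D4:**
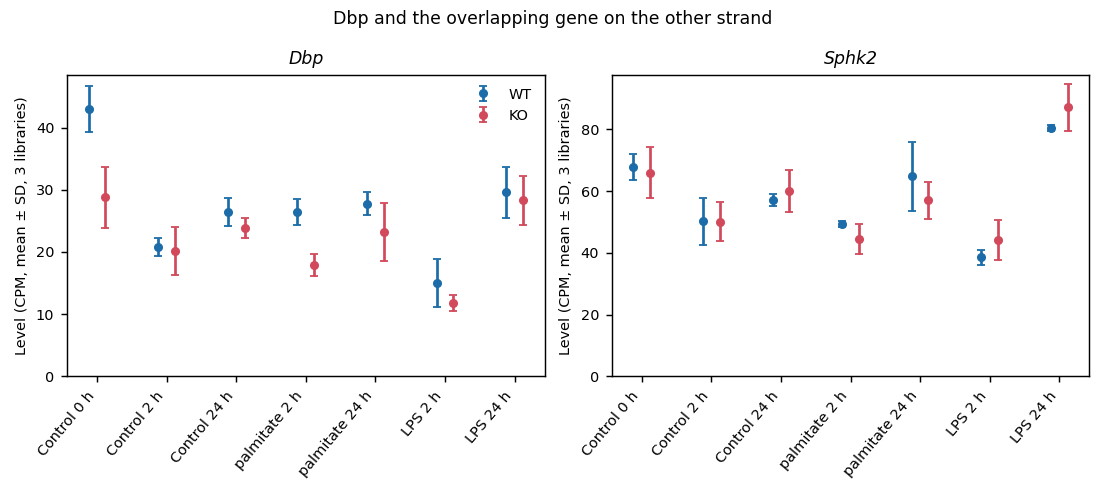
Level of Dbp (left) and of Sphk2, which overlaps it on the other strand (right), as TMM-scaled CPM (y axes, from 0) in the 7 conditions (x axes). Points are means and bars SD of 3 libraries, blue for WT and red for KO. Both genes are lower at LPS 2 h than at LPS 24 h, and at Control 0 h Dbp is 43.01 CPM in WT and 28.8 CPM in KO.

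Other measures moved with LPS as well. The 4 cell cycle markers summed to 656.6 to 985.5 CPM at LPS 2 h, 250.5 to 408.6 CPM in Control at 2 h, 317.6 to 383.1 CPM in Control at 24 h and 97.97 to 128.3 CPM at LPS 24 h. The 7 macrophage markers were 7737 to 8789 CPM at LPS 24 h and 5184 to 5336 CPM in Control. Granulocyte precursor markers (8 genes) were 330.9 to 451.3 CPM at LPS 24 h and 58.71 to 218.9 CPM in Control at 24 h, where Elane was at 0 in WT. Elane was also at 0 in WT at LPS 24 h. In bulk RNA, more or fewer cells of a type cannot be told apart from more or less of these RNAs per cell, whichever cells hold them. Fibroblast markers reached at most 2.48 CPM in the WT LPS libraries, but 0.759 to 152.2 CPM in KO at LPS 2 h and 0.560 to 174.9 CPM at LPS 24 h. The part of these shifts in the clock gene results was not tested.

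Between the genotype labels, 1 clock gene passed in 1 of 7 conditions. Dbp at Control 0 h was 28.8 ± 4.86 CPM in KO and 43.01 ± 3.70 CPM in WT (SD, n = 3 each), with every KO library below every WT library, which held for 28% of all genes in either direction. Dbp differed by -0.57 ± 0.14 on the log2 scale (SE, adjusted p = 0.00398). That is 1 of 10 genes against 12.5% of all genes (6.06% lower), and the call was lost without KO Control 0 h library 1 (adjusted p = 0.0538). Sphk2 did not pass (-0.04, adjusted p = 0.884). Cry2 at Control 0 h was under 0.05 only before adjustment and was higher in KO (0.48, adjusted p = 0.12). It passed without KO Control 0 h library 2. At Control 0 h fibroblast markers (5 genes) summed to 42.1 to 69.3 CPM in KO and 0.529 to 0.905 CPM in WT, where Dcn was at 0, and granulocyte precursor markers to 81.5 to 87.7 CPM in KO and 50.9 to 61.3 CPM in WT. Their part in the Dbp difference was not tested.

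In the other 6 conditions 0 of 10 clock genes passed by edgeR and 0 by DESeq2. Of all genes 0.49% passed at Control 2 h, 0.146% at palmitate 2 h, 0.465% at LPS 2 h, 0.12% at Control 24 h, 0.0688% at palmitate 24 h and 0.146% at LPS 24 h. At an unadjusted p under 0.05 there were 2 at Control 2 h (Per1 and Per2), 2 at palmitate 2 h (Cry1 and Dbp), 2 at LPS 2 h (Nr1d2 and Dbp), 1 at Control 24 h (Nr1d2), 0 at palmitate 24 h and 1 at LPS 24 h (Arntl), all lower in KO. For these counts, and for those of the changes below, the share of all genes at that threshold was not determined. Dbp at palmitate 2 h was 17.6, 19.8 and 16.3 CPM in KO and 24.7, 28.7 and 26.02 CPM in WT (-0.56, adjusted p = 0.125). The groups did not overlap there, which held for 16.1% of all genes, and the call was made when every gene with a count was tested or when only the groups compared were fitted. The changes with time or treatment differed between the labels for 0 of 10 clock genes in each of 7 comparisons by edgeR, and by DESeq2. Of all genes 4.77% passed for Control 2 h against 0 h, 1.83% for 24 h against 0 h, 0.0086% for LPS 24 h and 0% for the other 4. At an unadjusted p under 0.05 there were 2, 3, 0, 1, 0, 1 and 0 in the Control comparisons 2 h against 0 h, 24 h against 0 h and 24 h against 2 h, then palmitate 2 h and 24 h and LPS 2 h and 24 h. The smallest adjusted p was for Cry2 at Control 2 h against 0 h (-0.82, adjusted p = 0.084), which passed without KO Control 0 h library 2 or without KO Control 2 h library 3.

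Across the 14 group means of log2 CPM, the clock genes formed loose pairs. By Pearson correlation, Per1 and Dbp were at 0.83, Per1 and Tef at 0.74, Cry1 and Cry2 at 0.65 and Arntl and Per1 at 0.62. By rank correlation, Per1 and Dbp were at 0.65 and Arntl and Per1 at 0.50. The clock gene closest to Tef by rank was Cry2 (0.35), and the closest to Cry1 was Per2 (0.45). Per1 with Tef and Cry1 with Cry2 thus depended on the measure. The lowest Pearson values were -0.77 for Per1 and Clock, -0.63 for Per1 and Nr1d2 and -0.62 for Clock and Dbp. Arntl and Nr1d1 correlated at -0.50. The points share libraries and the strong LPS groups, so these values are descriptions. Among the genes that averaged 5 CPM or more, the pattern of Per1 was most like Zfp467 (0.96) and Zfp553 (0.95), that of Clock like Itsn2 (0.96) and Rock2 (0.94), and that of Dbp like Nrros (0.94) and Fem1a (0.93). Per2 was most like Il21r (0.91) and Notch1 (0.91), Nr1d2 like Smad5 (0.96) and Sfmbt1 (0.95), Cry1 like Dhx38 (0.94) and Dst (0.93), and Tef like Cfap20 and Zfp292 (both 0.93). Cry2 was most like Slc8b1 (0.92) and Lrrk1 (0.89), Nr1d1 like Wdfy4 (0.90) and Slc35e3 (0.87), and Arntl like Nip7 and Rfx7 (both 0.83). With rank correlations 7 of these 20 genes were chosen again. The ratio of the highest to the lowest group mean was 3.66 for Dbp, 2.90 for Per2, 2.44 for Per1 and 1.49 for Tef, against a median of 1.83 over all genes.

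**Figure D5:**
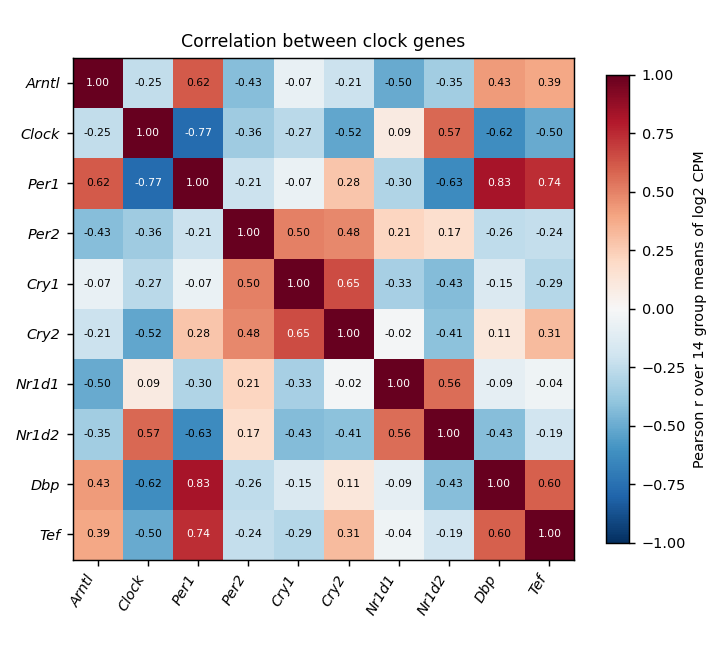
Pearson correlation between the clock genes over the 14 group means of log2 CPM, with red for positive and blue for negative values. Per1 goes with Dbp (0.83) and Tef (0.74) and against Clock (-0.77), and Cry1 goes with Cry2 (0.65). By rank correlation, not drawn, Tef was closest to Cry2 (0.35) and Cry1 to Per2 (0.45).

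A list of 32 other genes of the clock pathway placed these values in context, and 27 of them had enough counts to be tested. It held 12 core or loop genes, 12 modifiers of clock proteins and 8 outputs. In Control at 2 h against 0 h, 8 of 27 rose and 0 fell (9.35% and 7.36% of all genes). Usp2, a deubiquitinase of clock proteins, rose by 1.72 (adjusted p = 4.92e-11), Bhlhe40, a repressor at E-boxes, by 1.59 (adjusted p = 8.25e-22), and Pfkfb3, a regulator of glycolysis, by 0.49 (adjusted p = 1.46e-12), all on the log2 scale. At 24 h against 0 h 5 rose and 3 fell (7.9% and 8.62% of all genes), with Nampt, the NAD salvage enzyme, at 0.67 (adjusted p = 1.86e-15), Bhlhe40 at 0.60 (adjusted p = 4.23e-07), and Por at -0.29 (adjusted p = 2.32e-07). At 24 h against 2 h 3 rose and 9 fell (7.97% and 10.3% of all genes), among them Bhlhe40 at -0.98 (adjusted p = 1.7e-14). Like Per2, Bhlhe40 was highest at 2 h.

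Under palmitate 0 of 27 passed at 2 h by edgeR (0.542% of all genes), with 3 at an unadjusted p under 0.05, and 1 at 24 h (2.57% of all genes), the output gene Klf10 (0.46, adjusted p = 0.000153). At LPS 2 h 8 rose and 8 fell (19% and 15.2% of all genes). Csnk1a1, a casein kinase, rose by 0.75 (adjusted p = 1.94e-19). Usp2 fell by 2.07 (adjusted p = 2.08e-12), Klf10 by 0.93 (adjusted p = 2.16e-13) and Bhlhe40 by 0.75 (adjusted p = 2.84e-11). Under LPS at 2 h Usp2 was 2.50, 5.76 and 6.87 CPM in WT and 1.52, 3.24 and 1.30 CPM in KO. The floor of 3 counts was 1.053, 0.54 and 0.584 CPM in those KO libraries, so the size of its fall rests on few counts. At LPS 24 h 4 rose and 14 fell (25.6% and 26.5% of all genes). Klf9, an output gene, fell by 2.25 (adjusted p = 2.47e-13), Bhlhe40 by 1.97 (adjusted p = 2.37e-23) and Rora, an activator of Arntl, by 1.77 (adjusted p = 3.37e-21), while Pfkfb3 was higher by 0.89 (adjusted p = 3.26e-23). The median log2 fold change of the 27 genes at LPS 24 h was -0.29, against -0.01 over all genes, and that of the 10 clock genes was 0.14. At LPS 2 h these medians were -0.01, -0.02 and -0.18. The LPS change differed between 24 h and 2 h for 19 of 27 (5 positive, 14 negative), against 46.3% of all genes, among them Rora (-1.54, adjusted p = 9.51e-14) and Usp2 (1.62, adjusted p = 3.46e-06). Between labels 4 of 27 passed at Control 0 h, 2 higher and 2 lower in KO, a share near the 12.5% of all genes. Nfil3, a repressor at D-boxes, was higher in KO (0.84, adjusted p = 0.014) and Por, an electron donor to P450 enzymes, lower (-0.21, adjusted p = 0.00719). At Control 2 h 2 of 27 passed (0.49% of all genes), Pfkfb3 and Klf10, both lower in KO. The change of Pfkfb3 at 2 h against 0 h differed between labels (-0.43, adjusted p = 0.00248), and this was the only gene of the list for which a change did so in the 7 comparisons.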

How the data were processed

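For the 42 BMDM libraries RNA was copied into cDNA, which was then depleted of ribosomal sequences. The libraries were stranded and read from both ends. Per the study's methods and processing notes, the authors trimmed reads with fastp 0.19.11, aligned them to the mouse genome mm10 with STAR 2.7.3a. The deposited values are raw counts of each gene, with no scaling. Which annotation was counted, and whether by strand, is not given in the sources used here. Of 37310 identifiers, 32620 had a symbol. Columns name a group and no replicate, so library numbers follow column order, name a library and pair nothing.

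The tests were run with edgeR 4.0.16 in R 4.3.3. The 11624 genes kept by filterByExpr were scaled by TMM and fitted with 1 mean per group in a single quasi-likelihood model over all libraries. Contrasts used the quasi-likelihood F test with Benjamini-Hochberg adjustment over all genes tested, with calls at an adjusted p under 0.05. A comparison averaged over genotypes set 6 libraries against 6. SEs were derived from the log2 fold change and its F statistic, and intervals are 95%. The tests were checked on simulated data. Intervals and the floor of 3 counts cover counting and replicate error only, since PCR reads without molecular identifiers are not independent molecules. Exon lengths and overlaps came from GENCODE vM21. Per gene, the 2 genes most alike were those with the highest Pearson correlation over group means (prior count of 2).

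Of the other clock genes, at most 3 per direction and comparison were named, by the smallest adjusted p, and some genes of that list are not reported here by name. Overlapping neighbours and the label and treatment checks were named with their counts. The members and lists were chosen with earlier results of these data known. The alternatives were RLE size factors, every gene with a count, DESeq2 1.42.0, fits of only the groups compared, and leaving out each library. Figures were drawn with matplotlib.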

Additional observations from a re-analysis of the deposited data

Results flagged for a closer look

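The LPS change differed between 24 h and 2 h, by the test of the difference itself over both genotypes, for 7 of 10 clock genes (46.3% of all genes). The comparison was chosen after the values were seen. The differences (log2, 24 h change minus 2 h change) were -0.82 for Clock, 1.10 for Per1, 1.33 for Per2, 0.64 for Cry2, -0.29 for Nr1d2, 0.82 for Dbp and 0.33 for Tef. Sphk2, which overlaps Dbp on the other strand, differed by 0.80. Outlying libraries were not looked for within groups, because each group has 3.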

How the results depend on the processing

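No paired analysis was possible because the columns of the count table carry no replicate numbers. The counts of clock genes passing were the same with RLE size factors and with DESeq2 as in the results above, in all 22 comparisons. RLE moved the median log2 fold change of all genes by under 0.01. Leaving out 1 library at a time gave 1 to 3 genes for Control 24 h against 0 h (2 with all libraries, 1 without WT Control 0 h library 1, KO Control 0 h library 2 or WT Control 24 h library 1, when Nr1d1 was lost). It gave 0 to 1 for the label difference in the changes of Control 2 h against 0 h and of 24 h against 0 h (0 with all), and 0 to 2 for KO against WT at Control 0 h (1 with all, 0 without KO library 1, 2 without KO library 2, when Cry2 passed as well). For KO against WT at palmitate 2 h, 1 gene passed instead of 0 when every gene with a count was tested and when only the groups compared were fitted, in both cases Dbp. The order by level per length kept 3 of 10 places with the longest transcript, and 7 of 20 most alike genes were chosen again by rank correlation. Control 24 h against 2 h gave 3 genes instead of 4 with every gene with a count and 6 with only the groups compared, and LPS 2 h gave 4 instead of 5 with every gene with a count and 4 to 6 without 1 library. None of the fold changes recomputed under the alternatives reversed. Those of Sphk2 and Thra, of Per2 at Control 24 h against 0 h and of Per1 and Dbp at LPS 24 h were not recomputed. The cause of these shifts was not tested. Depth limits Nr1d1, Per2 and Arntl most, whose median counts were 34, 51 and 56.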
